A study of Mus musculus with 16 samples.

Results

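Liver RNA of 12 male C57BL/6 mice on an ethanol diet was compared with that of 4 male C57BL/6 mice on a diet without ethanol, out of 16 mice in all. The 12 were every mouse whose label names an alcohol liquid diet, and they formed 3 groups of 4. The alcohol group received the Lieber-DeCarli ethanol liquid diet, a model in which the liver accumulates fat. The DADS group received the same diet with 15 mg/kg of diallyl disulfide (DADS), a sulfur compound found in garlic oil, and the garlic oil group received it with 50 mg/kg of garlic oil. The control group was pair-fed the Lieber-DeCarli liquid diet that holds no ethanol. All 16 mice, controls included, were also given 0.1 ml of olive oil by gavage each day for 4 weeks, with DADS or garlic oil mixed into it where they were given. No group received DADS or garlic oil without ethanol, and the labels give no age. The question was what ethanol feeding changed in all 3 ethanol groups, whatever was given with it.

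The liver oxidises ethanol through alcohol dehydrogenase and the cytochrome P450 Cyp2e1, and the acetaldehyde that results through aldehyde dehydrogenases. Foreign chemicals induce other P450 and conjugating enzymes through the nuclear receptors CAR and PXR, and electrophiles induce glutathione S-transferases and related enzymes through the transcription factor NRF2. Ethanol-fed liver is known for stored triglyceride, and genes of fat synthesis, storage and oxidation are commonly followed in this model.

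Each mouse gave 1 array, a 1-colour Illumina BeadChip of 25697 probes, and each array detected between 10631 and 11526 probes. After background correction and quantile normalization on the log2 scale, 8386 genes could be tested. Every level below is a log2 normalised intensity, and every change is a difference of such levels. The pooled change is the mean of the 3 ethanol group means minus the control mean, each ethanol group counting equally. The correlation between arrays of the same group ran from 0.973 to 0.993. The labels call the samples biological replicates, so p-values measure the spread between these mice.

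Control and alcohol arrays shared 1 chip, and DADS and garlic oil arrays shared another. For DADS and garlic oil against control, diet and chip therefore cannot be told apart. The same holds for treatment and chip where DADS or garlic oil is set against alcohol. The change of alcohol against control lies within 1 chip and is given beside the pooled change of most genes named. All 3 single comparisons share the same 4 control arrays. Hepatocyte markers were present in every sample: the summed signal of 14 defining hepatocyte genes, Alb, Ttr and Apoa1 among them, lay between 482110 and 524700 on all 16 arrays, and each of the 14 was detected. Alcohol replicate 1 stood apart. Its summed signal of 20 pancreatic acinar genes was 826040, against 1228 to 3012 on the other 15 arrays, and list counts were therefore also taken without it.

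In the pooled comparison, 1399 of 8386 genes differed between ethanol groups and control (16.7% of genes tested) by limma with Benjamini-Hochberg adjusted p under 0.05. Of these, 716 rose (8.54%) and 683 fell (8.14%), with 84 rises and 63 falls of at least 2-fold. Counts within a gene list below are to be read against these shares. They are not counts of ethanol alone, since 2 of the 3 groups also received DADS or garlic oil and lay on the other chip. Against control on its own, the alcohol group had 300 calls (3.58%), of which 163 rose (1.94%) and 137 fell (1.63%). The DADS group had 1335 (15.9%), with 711 rises (8.48%) and 624 falls (7.44%), and the garlic oil group 1497 (17.9%), with 718 rises (8.56%) and 779 falls (9.29%). A gene is called changed in all 3 groups where it passed the same test in the same direction in each of these comparisons. This held for 173 genes (2.06%), of which 100 rose (1.19%) and 73 fell (0.87%). The 12 ethanol arrays lay wholly above the 4 control arrays for 216 genes (2.58%) and wholly below them for 200 (2.38%), and the groups did not overlap for 154 of the 173.

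Leaving out 1 array at a time, between 77 of the 173 genes (without control replicate 1) and 159 (without DADS replicate 4) kept their calls in all 3 groups, and 66 kept them in all 16 fits, 48 of them rises and 18 falls. In the pooled comparison the rises were 407 to 806 and the falls 354 to 778 over the same 16 fits. Rises and falls were 446 and 385 without control replicate 1, 407 and 354 without control replicate 2, and 472 and 430 without control replicate 3. Refitted calls in all 3 groups were 55 rises and 24 falls without control replicate 1, 57 and 31 without control replicate 2, and 62 and 35 without alcohol replicate 3. The falls in all 3 were also 38 without control replicate 3 and 47 without alcohol replicate 1. With the 3 ethanol groups joined into 1 (2 groups in the fit), 498 genes rose and 475 fell, and with chip added to that fit as a fixed block, which rests on the chip of control and alcohol arrays, 110 rose and 74 fell. Below, a fixed chip block means this fit of 2 groups. All arrays of the other chip are ethanol-fed, so the change it gives is that of alcohol against control. A call lost with it is therefore no second check beside the alcohol change. The fit joins DADS and garlic oil, so their difference counts as spread. A call can thus be lost with it although alcohol against control passed in the main fit. The split of rises and falls also depended on scaling: rises were 51.2% of calls here and 78.6% after median scaling, which moved the median change of all genes by 0.112. That median was -0.02.

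**Figure D1:**
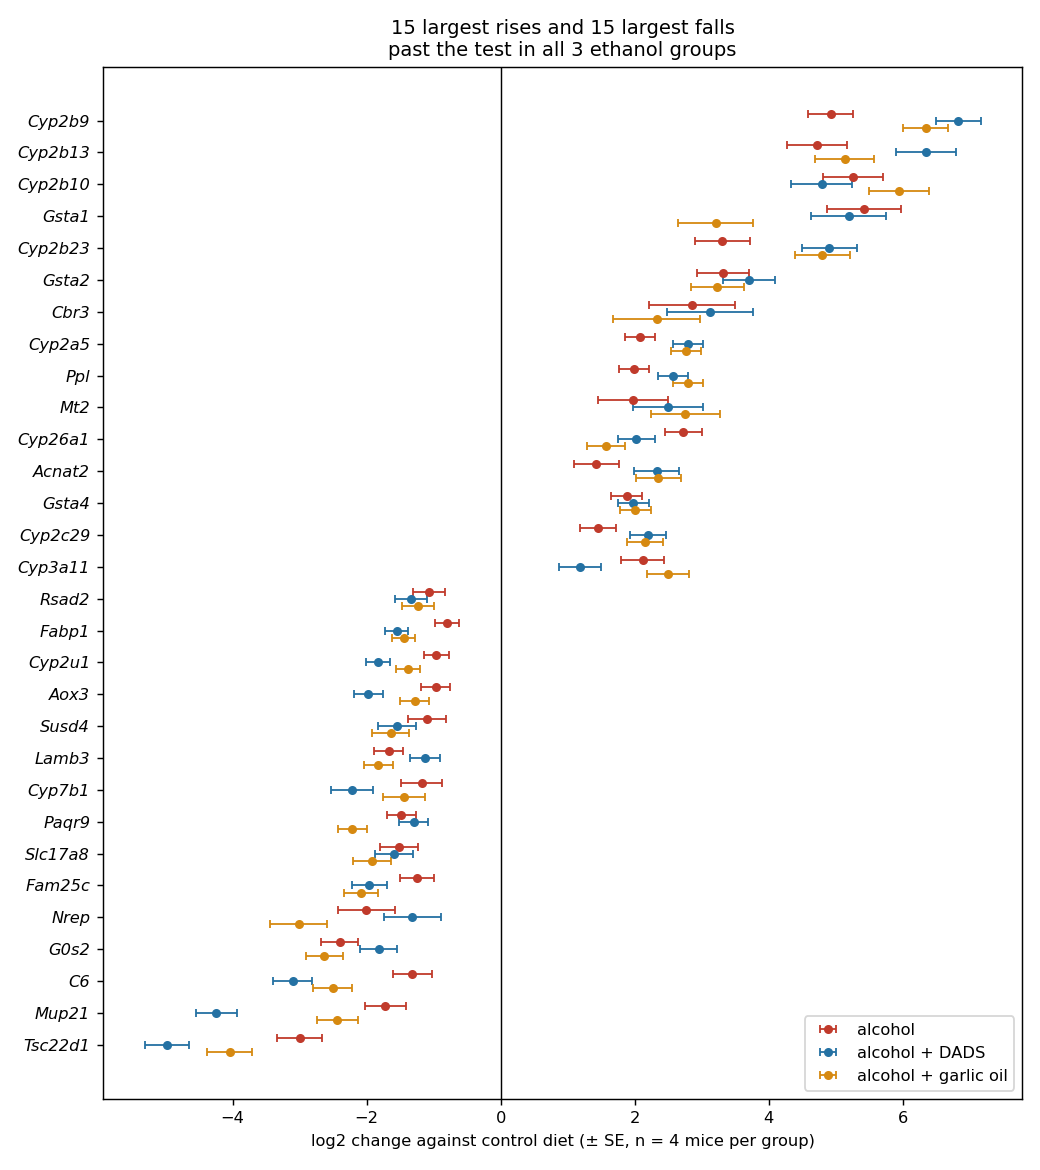
Change against control diet (horizontal axis, log2, with SE, 4 mice per group) of the 15 largest rises and 15 largest falls among genes called in all 3 ethanol groups, by pooled change; each colour is an ethanol group. Every point of the rises lies right of 0 and every point of the falls left of it, from 6.83 for Cyp2b9 in the DADS group to -4.98 for Tsc22d1 in the same group.

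The largest rises belonged to enzymes that handle foreign chemicals. Of 25 tested targets of CAR and PXR, 19 rose in the pooled comparison and 0 fell, and 10 rose in all 3 groups. Their median pooled change was 0.82, and the group medians were 0.57 in alcohol, 0.79 in DADS and 0.87 in garlic oil. On the array were 31 such targets. Cyp2b10, Cyp2b13, Cyp2b23 and Cyp2c39 were detected on no control array. They passed the detection filter through ethanol arrays alone and could hardly fall. The 4 Cyp2b genes led. These encode P450 enzymes that oxidise drugs and steroids, and Cyp2b10 is the usual marker of CAR activity in mouse liver. Cyp2b9 measured 5.65, 6.67, 6.53 and 5.53 on the control arrays. It measured 10.81, 10.71, 10.89 and 11.66 in the alcohol group, 13.38, 13.27, 13.14 and 11.91 in the DADS group, and 12.44, 12.18, 12.09 and 13.04 in the garlic oil group. The lowest ethanol array was thus far above the highest control array. The pooled rise of Cyp2b9 was 6.03 ± 0.27 (SE), or 65.4-fold, with a limma adjusted p of 2.7e-10 (4.92 in alcohol), although its probe was detected on only 2 of 4 control arrays.

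Cyp2b10, Cyp2b13 and Cyp2b23 were not above background on any control array and were detected on all 12 ethanol arrays, so their rises have lower bounds only. Cyp2b10 measured 4.70, 4.71, 4.68 and 4.68 on control arrays. It measured 9.45, 10.44, 10.43 and 9.48 in the alcohol group, 10.03, 11.00, 8.53 and 8.36 in the DADS group, and 9.89, 11.01, 11.26 and 10.40 in the garlic oil group. No ethanol array came near the control values. Over all ethanol arrays Cyp2b10 was at least 19.6-fold higher (limma adjusted p 8.61e-08), and by group at least 18.6-fold in alcohol, 13.4-fold in DADS and 30-fold in garlic oil. The pooled bounds were at least 23-fold for Cyp2b13 and at least 10.8-fold for Cyp2b23. A bound takes the ethanol mean against the detection limit of the control arrays or the probe's own value where higher. The Cyp2b genes are near-identical in sequence, so a probe may also read a relative.

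Cyp2a5, a P450 that oxidises coumarin and nicotine, was already well expressed on the control diet. Its control arrays measured 12.26, 12.30, 12.59 and 13.26. The alcohol arrays measured 14.43, 14.17, 15.12 and 15.02, the DADS arrays 15.57, 15.47, 15.07 and 15.51, and the garlic oil arrays 15.54, 15.27, 15.24 and 15.40. All 12 ethanol arrays lay above all 4 control arrays, and the pooled rise was 2.55 ± 0.18 (5.84-fold, limma adjusted p 1.22e-07), with 2.08 in alcohol. Cyp2c29, another drug-metabolising P450, rose by 1.46 in alcohol, 2.20 in DADS and 2.15 in garlic oil, and Cyp3a11, the main PXR target of mouse liver, by 2.12, 1.18 and 2.49. Cyp3a11 kept its 3 calls in 12 of 16 fits with 1 array left out, losing them without control replicate 1 or 4 or DADS replicate 1 or 2.

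Glutathione-linked detoxification genes rose in many tested members. Among 36 tested NRF2 targets and glutathione enzymes, 21 rose and 0 fell in the pooled comparison, with a median pooled change of 0.63, and 11 rose in all 3 groups. The transferases of the alpha and mu classes, which join glutathione to reactive lipids and drugs, held most of these. Gsta1 measured 5.42, 5.74, 6.53 and 6.96 on control arrays, where 2 of 4 detected it. It measured 11.51, 11.00, 12.23 and 11.60 in alcohol, 12.93, 11.56, 11.31 and 9.63 in DADS, and 10.47, 9.60, 8.11 and 9.31 in garlic oil. Every ethanol array exceeded every control array, and the garlic oil arrays were mostly the lowest of the ethanol arrays. The pooled rise of Gsta1 was 4.61 ± 0.46 (24.4-fold, limma adjusted p 5.74e-06), with 5.42 in alcohol, and its ethanol groups differed among themselves by the F test (adjusted p 0.0408).

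Gsta2 rose from a control mean of 7.75 ± 0.16 (SD, n = 4) to 11.07 ± 0.95 in alcohol, 11.46 ± 0.79 in DADS and 10.99 ± 0.35 in garlic oil. The 3 rises of Gsta2 were 3.31, 3.71 and 3.24, and the F test among ethanol groups did not pass (limma adjusted p 0.651). Gsta4, which conjugates the lipid peroxidation product hydroxynonenal, rose by 1.88, 1.98 and 2.01. Gstm1 rose by 2.01 in alcohol, 1.88 in DADS and 1.19 in garlic oil, and here the ethanol groups did differ (F test adjusted p 0.0373). Cbr3, a carbonyl reductase, rose by 2.77 ± 0.53 in the pooled comparison and 2.85 in alcohol, with all 12 ethanol arrays above the control arrays, and kept its 3 calls in 11 of 16 fits. The fits that lost the 3 calls of Cbr3 lacked control replicate 1, 2 or 3, alcohol replicate 3 or garlic oil replicate 1. Transferases of 1 class are close relatives, so their probes may not be specific to 1 member.

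Other members of the same list did not pass the test or passed it in part. Hmox1, the heme-degrading enzyme that oxidative stress induces, had a pooled change of -0.12 with a 95% interval from -0.56 to 0.32, and by group -0.14, -0.63 and 0.41. Gclc, the catalytic subunit that limits glutathione synthesis, had 0.26 (-0.27 to 0.79), with 0.39 in alcohol. Nqo1, a quinone reductase, was not above background on any control array and rose in the pooled comparison (at least 1.51-fold, limma adjusted p 0.00348). Its alcohol arrays measured 5.76, 5.25, 6.42 and 6.01, and the alcohol group alone did not pass (adjusted p 0.197). With chip as a fixed block the pooled call of Nqo1 was lost.

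**Figure D2:**
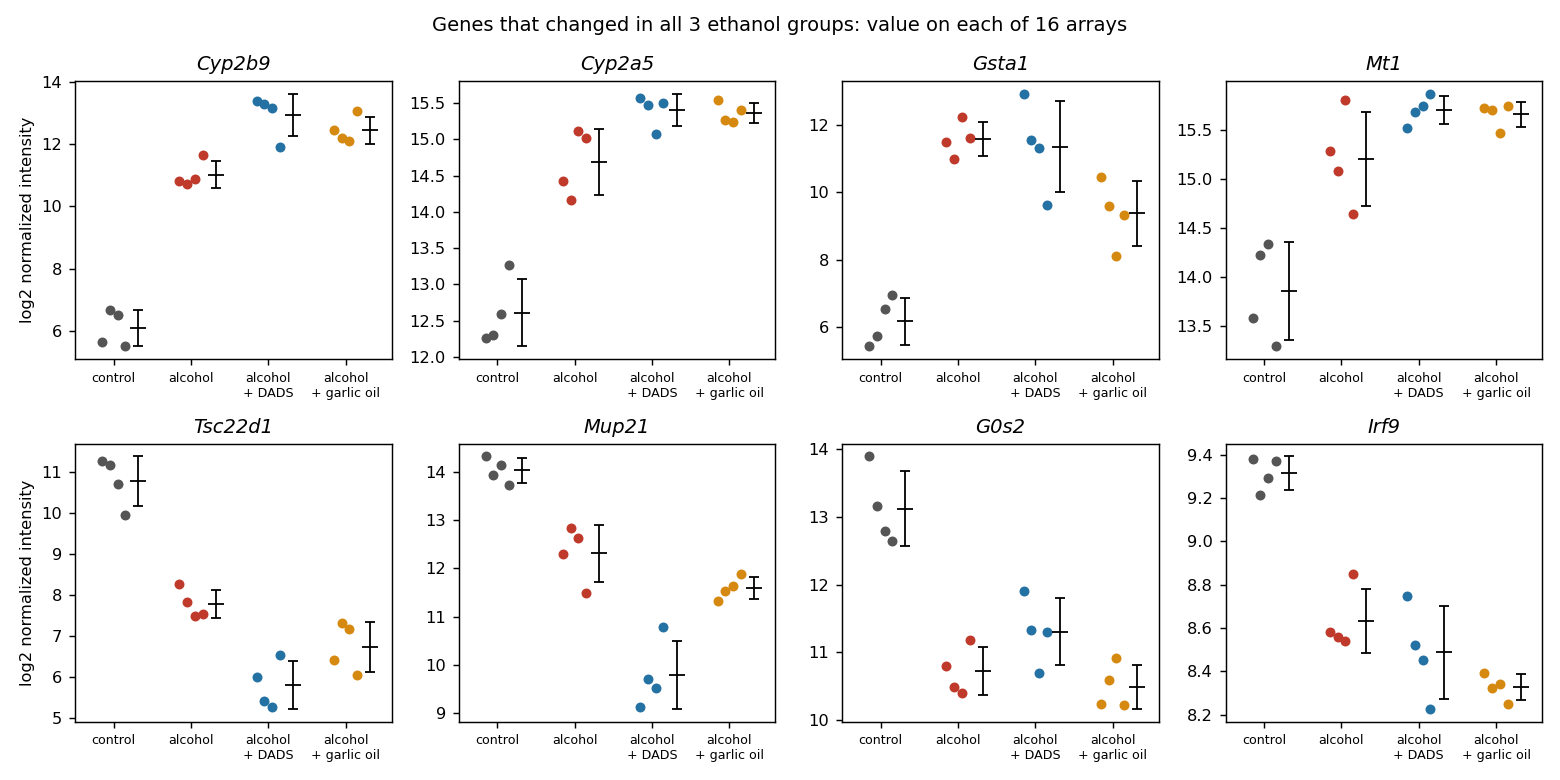
Level on each array (log2 normalised intensity, vertical axis) of 8 genes called in all 3 ethanol groups, by group of 4 mice; points are arrays, and the bar beside each group is its mean with SD. For each of these 8 genes the 12 ethanol arrays lie wholly above or wholly below the 4 control arrays.

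The metallothioneins, small cysteine-rich proteins that bind zinc and copper, rose in all 3 groups. Mt1 measured 13.58, 14.22, 14.33 and 13.29 on control arrays. It measured 15.28, 15.08, 15.80 and 14.64 in alcohol, 15.52, 15.69, 15.74 and 15.87 in DADS, and 15.73, 15.70, 15.47 and 15.74 in garlic oil. No ethanol array overlapped the control arrays, and the pooled rise of Mt1 was 1.66 ± 0.19 (limma adjusted p 2.12e-05), with 1.34 in alcohol. Values of Mt1 in the ethanol groups were close to the highest gene value of an array, which was 15.84 to 15.87. Whether the scale is compressed there was not tested. Mt2 rose by 1.98, 2.49 and 2.76 in alcohol, DADS and garlic oil, but 1 alcohol array (6.23) lay below 2 control arrays (6.30 and 6.54). Mt2 kept its 3 calls in 7 of 16 fits with 1 array left out: they were lost without any 1 of the 4 control arrays, of alcohol replicates 1 to 3 and of garlic oil replicates 2 and 4. With chip as a fixed block the adjusted p of Mt2 was 0.0513.

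Both metallothionein genes lie side by side on chromosome 8, and their promoters are shown because the metal response element is the textbook control site of this pair. The 250 bases before each start are given as RefSeq has them in GRCm38.p6, 5′ to 3′ on the plus strand. Capitals mark matches on either strand to TGCNCNC, a loose pattern for the core of that element. It allows any base at each N, so a match need not be a metal response element.
Mt2, chr8:94172368-94172617: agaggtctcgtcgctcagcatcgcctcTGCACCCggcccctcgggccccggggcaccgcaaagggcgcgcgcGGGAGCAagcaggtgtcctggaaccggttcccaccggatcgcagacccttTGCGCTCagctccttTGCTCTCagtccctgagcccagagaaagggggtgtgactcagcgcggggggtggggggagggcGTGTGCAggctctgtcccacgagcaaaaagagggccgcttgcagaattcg
Mt1, chr8:94178839-94179088: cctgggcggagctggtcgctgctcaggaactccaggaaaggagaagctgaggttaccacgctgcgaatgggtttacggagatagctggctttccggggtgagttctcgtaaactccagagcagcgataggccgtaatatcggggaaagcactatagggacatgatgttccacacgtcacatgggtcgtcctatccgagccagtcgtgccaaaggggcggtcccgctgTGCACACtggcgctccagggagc
The Mt2 window held 5 matches, from -223 to -50 relative to the start, and the Mt1 window held 1, at -23. The pattern is short and common. Of 6853 tested genes with a promoter window, 56.1% held at least 1 match. Among genes changed in all 3 groups, 47 of 81 that rose (58.0%) and 35 of 58 that fell (60.3%) held 1. The antioxidant response core TGACNNNGC, the NRF2 motif, was in 13.7% of all these windows, in 8.64% of those of the risen genes and in 22.4% of those of the fallen genes. None of the 7 windows read for 6 NRF2-list genes, Gsta1, Gsta2, Gstm1 and Nqo1 among them, held it. These are matches of letters only, and sites outside the 250 bases were not searched, so a window without a match does not show that a gene lacks the element.

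Retinoid oxidation changed at a few steps. Of 12 tested genes of retinoid oxidation, binding and storage, 2 rose and 1 fell, all 3 of them in every ethanol group, and the list median was 0.02. Cyp26a1, which clears retinoic acid and is itself induced by it, measured 5.24, 6.35, 5.96 and 5.05 on control arrays, with 2 of 4 detected. In the alcohol group it measured 9.01, 8.16, 7.83 and 8.51, in the DADS group 7.64, 7.47, 7.62 and 7.99, and in the garlic oil group 7.52, 6.70, 7.47 and 7.21. The groups did not overlap with control, and the pooled rise of Cyp26a1 was 2.11 ± 0.23 (4.31-fold, limma adjusted p 1.35e-05), with 2.72 in alcohol. Dhrs4, a retinal reductase, fell, with changes of -0.80 in alcohol, -0.95 in DADS and -0.77 in garlic oil, again without overlap. Aldh1a7, an aldehyde dehydrogenase, rose by 0.63, 0.60 and 0.87 and kept its 3 calls in 11 of 16 fits, losing them without control replicate 1, 2 or 4 or alcohol replicate 1 or 3.

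Genes of ethanol oxidation itself passed at the share of all genes (16.7%). Of 12 tested genes of ethanol and acetaldehyde oxidation, 2 rose (1 without alcohol replicate 1), 0 fell and 0 passed in all 3 groups, with a median pooled change of -0.06. Cyp2e1, the ethanol-inducible P450, measured 15.67, 15.72, 15.81 and 15.64 on control arrays. Its alcohol arrays measured 15.69, 15.72, 15.56 and 15.64, its DADS arrays 15.69, 15.57, 15.60 and 15.69, and its garlic oil arrays 15.69, 15.64, 15.50 and 15.66. The groups overlapped fully, and the pooled change of Cyp2e1 was -0.07 with a 95% interval from -0.24 to 0.09 (-0.06 in alcohol). Its level was among the 30 highest of all genes on every array, and the highest level of any gene was 15.84 to 15.87. Aldh2, the main mitochondrial aldehyde dehydrogenase, had a pooled change of -0.04 (-0.21 to 0.12, with -0.01 in alcohol) and levels of 15.44 to 15.74. Whether the scale is compressed at these levels was not tested, so the intervals of Cyp2e1 and Aldh2 may not bound a rise. Adh1, the main liver alcohol dehydrogenase, rose by 0.41 ± 0.13 (limma adjusted p 0.0427; 0.30 in alcohol), overlapping with control. With a fixed chip block its adjusted p was 0.365. The call of Adh1 was lost in 11 of 16 fits with 1 array left out, those without any 1 of the 4 control arrays among them.

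**Figure D3:**
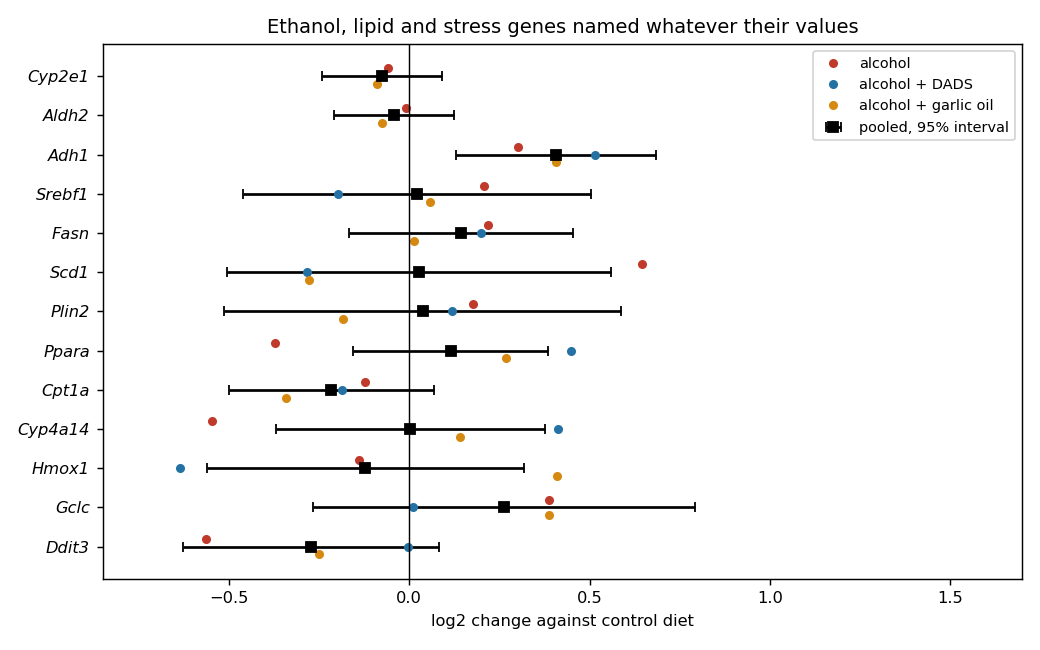
Pooled change against control diet (black squares with 95% interval, log2, horizontal axis) of 13 genes of ethanol, lipid and stress biology, with the change of each ethanol group (coloured points, 4 mice each). All intervals but that of Adh1 span 0. No control array detected Fasn, and Cyp2e1 and Aldh2 lay near the top of the scale, so the intervals of these genes may not bound a change.

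Genes of fat metabolism showed scattered changes. G0s2, an inhibitor of the lipase that opens lipid droplets, fell in all 3 groups. It measured 13.90, 13.16, 12.80 and 12.64 on control arrays, and 10.81, 10.49, 10.40 and 11.19 in alcohol, 11.91, 11.33, 10.69 and 11.30 in DADS, and 10.24, 10.59, 10.91 and 10.22 in garlic oil. The highest ethanol array lay below the lowest control array, and the pooled change was a fall by 2.28 ± 0.23 on the log2 scale (limma adjusted p 5.74e-06), with -2.40 in alcohol. Plin4, a lipid droplet coat protein, rose by 1.51 in alcohol, 1.57 in DADS and 1.06 in garlic oil. Fabp1, the liver fatty acid binding protein, fell in all 3 groups, with control arrays at 7.04, 6.96, 6.62 and 6.76 and the highest ethanol array at 6.54. Its array probe was dim, the lowest detected levels on control arrays being 5.70 to 5.77. Whether it reads the main Fabp1 transcript of liver was not tested. The probe was detected on no DADS array, where it was at least 2.34-fold lower. Fabp1 kept its 3 calls in 12 of 16 fits, losing them without control replicate 1 or 2 or alcohol replicate 1 or 3. Of 20 tested genes of lipid droplets, lipolysis, uptake and export, 3 rose and 5 fell, and their median was 0.06. Plin2, the coat protein that usually follows droplet load, had a pooled change of 0.04 (95% interval -0.51 to 0.59), with 0.18 in alcohol.

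Fat synthesis and fat oxidation were shifted in a minority of genes. Of 26 tested lipogenic genes, 2 rose and 6 fell (4 without alcohol replicate 1, and 4 rose and 3 fell after median scaling), with a median of -0.01. Elovl5, which lengthens polyunsaturated fatty acids, was the member called in all 3 groups. It measured 14.46 to 14.49 on the 4 control arrays and 13.47 to 14.15 on the 12 ethanol arrays, and fell, with changes of -0.72 in alcohol, -0.45 in DADS and -0.86 in garlic oil. Elovl5 kept its 3 calls in 10 of 16 fits, losing them without any 1 of the control arrays or DADS replicate 2 or 3. Srebf1, which encodes the lipogenic factor SREBP1, had a pooled change of 0.02 (-0.46 to 0.50, with 0.21 in alcohol), and Scd1, the stearoyl-CoA desaturase, 0.03 (-0.50 to 0.56, with 0.64 in alcohol). Fasn, the fatty acid synthase, was not above background on any control array and was detected on 5 of 12 ethanol arrays, so no fold is given.

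Among 42 tested genes of fatty acid oxidation and of its regulator PPARA, 1 rose and 9 fell (0 and 8 without alcohol replicate 1). In all 3 groups 0 of them passed, and the median was -0.19. After median scaling 2 rose and 1 fell. Decr1, a mitochondrial reductase for unsaturated fatty acids, fell by 0.71 ± 0.15 (limma adjusted p 0.00391), with -0.78 in alcohol. Its control arrays measured 11.10, 11.18, 10.63 and 10.60, and all 12 ethanol arrays, at 9.78 to 10.56, lay below them. Ech1, an isomerase of the same pathway, fell by 0.35 ± 0.08, with -0.55 in alcohol, a call that was lost after median scaling. Cpt1a, the carnitine transferase that admits fatty acids to mitochondria, had a pooled change of -0.22 (-0.50 to 0.07, with -0.12 in alcohol), and Ppara itself 0.12 (-0.15 to 0.39, with -0.37 in alcohol). Cyp4a14, a fatty acid hydroxylase that PPARA induces, had a 95% interval from -0.37 to 0.38, and its changes of -0.55 in alcohol, 0.41 in DADS and 0.14 in garlic oil differed among the ethanol groups (F test adjusted p 0.0344). Fgf21, a fasting hormone made in liver, fell by 1.28 ± 0.41 (adjusted p 0.0402), but by group its changes were -1.97, -0.08 and -1.78, and the call was lost in 9 of 16 fits with 1 array left out, control replicates 1, 2 and 4 and alcohol replicate 1 among them, and with a fixed chip block. For cholesterol synthesis, 1 of 19 tested genes rose and 2 fell, with a median of -0.33.

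**Figure D4:**
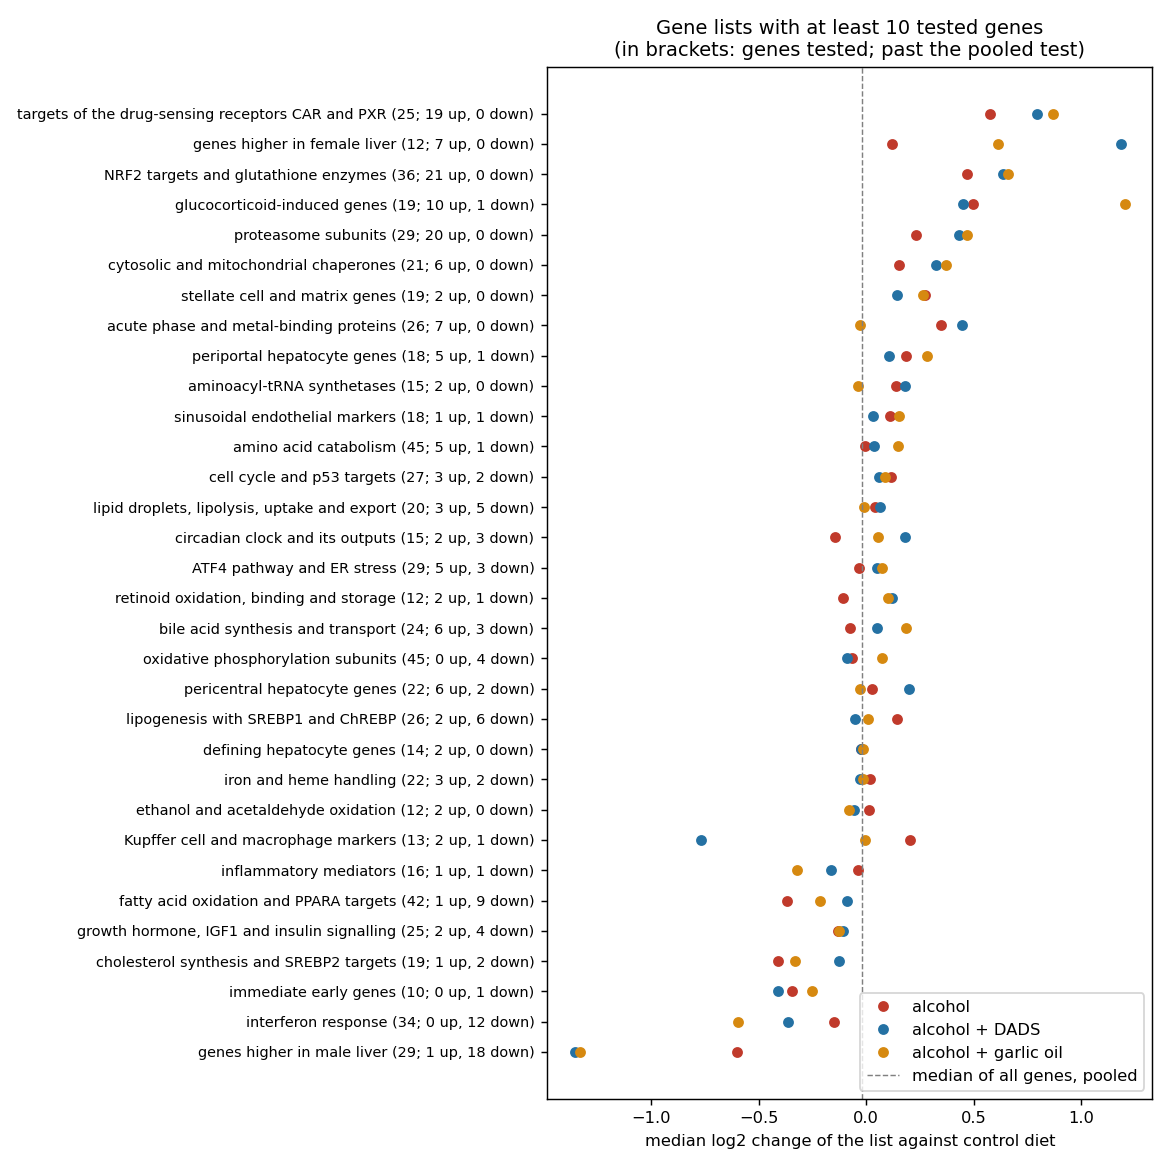
Median change against control diet (log2, horizontal axis) of each gene list with at least 10 tested genes, by ethanol group; brackets give genes tested and genes past the pooled test. Lists are ordered by their pooled median, from targets of CAR and PXR (0.82) to genes higher in male liver (-1.06), and the dashed line is the pooled median of all genes.

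Bile acid genes moved in both directions. Of 24 tested, 6 rose and 3 fell, and the median was 0.02. Cyp7a1, the rate-limiting enzyme of bile acid synthesis, measured 10.21, 10.51, 10.67 and 11.71 on control arrays, and 6.44, 6.69, 8.61 and 5.53 in alcohol, 8.62, 6.61, 10.37 and 9.77 in DADS, and 7.91, 6.95, 6.34 and 7.27 in garlic oil. A DADS array overlapped the control arrays. Cyp7a1 fell by 3.18 ± 0.56 in the pooled comparison (limma adjusted p 0.00116). Its changes of -3.96 in alcohol and -3.66 in garlic oil passed, while that of -1.93 in DADS did not (adjusted p 0.0623). Cyp7a1 did not pass the F test, so a difference between the ethanol groups was not shown. Cyp7b1, the oxysterol hydroxylase of the alternative route, fell in all 3 groups, with changes of -1.18, -2.22 and -1.45 and no overlap. Cyp7b1 kept its 3 calls in 7 of 16 fits. They were lost without any 1 of the control arrays, of alcohol replicates 1, 3 and 4 and of garlic oil replicates 2 and 4. With a fixed chip block the adjusted p of Cyp7b1 was 0.0908, although alcohol against control passed in the main fit. Akr1d1, a steroid reductase of a later step, passed the pooled test upward (limma adjusted p 0.00137), but only 1 of 4 control and 2 of 4 alcohol arrays detected it, so the size of its rise is not given. Cyp39a1, an oxysterol hydroxylase that no control array detected, rose at least 1.98-fold, and its alcohol group alone did not pass (limma adjusted p 0.137), and both calls were lost with chip as a fixed block.

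Genes known to be higher in male than in female mouse liver were mostly lower in these ethanol-fed male mice. Of 29 tested genes that are higher in male liver, 18 fell, 1 rose and 7 fell in all 3 groups, and the median pooled change was -1.06. By group the medians were -0.60 in alcohol, -1.36 in DADS and -1.33 in garlic oil, and 7, 22 and 17 of the genes fell. Of 12 tested genes that are higher in female liver, 7 rose and 0 fell, with a median of 0.71 and group medians of 0.12, 1.19 and 0.61. On the array were 23 genes of this list. Members that no control array detected, Cyp2b13 and Cyp2c39 among them, passed the detection filter through ethanol arrays alone and could hardly fall. The count of falls and the median are therefore partly set by the filter. Cyp2b9 and Cyp2b13, which belong to this list and to that of CAR and PXR, were the members that rose in all 3 groups.

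Mup21, a major urinary protein, measured 14.32, 13.93, 14.15 and 13.73 on control arrays. It measured 12.30, 12.84, 12.62 and 11.48 in alcohol, 9.14, 9.71, 9.53 and 10.78 in DADS, and 11.33, 11.52, 11.64 and 11.89 in garlic oil. No ethanol array reached the control values, and DADS arrays were the lowest. The pooled fall of Mup21 was by 2.80 ± 0.25 (limma adjusted p 1.87e-06), with -1.72 in alcohol, and the ethanol groups differed (F test adjusted p 0.000737). C6, a complement component of the membrane attack complex, measured 12.36, 11.96, 12.19 and 12.10 on control arrays and between 8.72 and 11.47 on ethanol arrays. C6 fell, with changes of -1.32 in alcohol, -3.11 in DADS and -2.51 in garlic oil, and differed among the ethanol groups (F test adjusted p 0.00747), and without control replicate 1 its 3 calls were lost. With chip as a fixed block the adjusted p was 0.0929 for Mup21 and 0.0343 for C6. Members of the major urinary protein family are close in sequence, so the Mup21 probe may read relatives.

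Other genes of the male list gave the same direction at smaller size. Cyp2u1, a fatty acid hydroxylase, fell, with changes of -0.96 in alcohol and -1.38 in garlic oil, and was detected on no DADS array, where it was at least 2.24-fold lower. Susd4, a complement inhibitor, fell, with changes of -1.10, -1.55 and -1.64, keeping its 3 calls in 10 of 16 fits and losing them without control replicate 1, 3 or 4 or alcohol replicate 1, 2 or 4. Slc17a8, a vesicular glutamate transporter, fell, with changes of -1.52, -1.60 and -1.92. Fmo5, a flavin monooxygenase, was the member that rose, by 1.36 in alcohol, 1.38 in DADS and 1.71 in garlic oil, with all 12 ethanol arrays above the control arrays. Of the female list, Hamp2, a hepcidin, rose by 1.45 ± 0.27 in the pooled comparison, while its alcohol change of 0.61 did not pass (limma adjusted p 0.348). Cyp2c39 was not above background on any control array and was detected on 1 of 4 alcohol arrays, so its pooled rise is at least 1.03-fold only (limma adjusted p 0.00217). Both calls were lost with a fixed chip block, and both differed among ethanol groups (F test adjusted p 0.0333 for Hamp2 and 0.0105 for Cyp2c39).

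Tsc22d1, a transcriptional regulator first known as a gene stimulated by TGF-beta, showed the largest fall among genes called in all 3 groups. It measured 11.28, 11.19, 10.73 and 9.95 on control arrays. In the alcohol group it measured 8.26, 7.84, 7.49 and 7.55, in the DADS group 6.00, 5.41, 5.27 and 6.55, and in the garlic oil group 6.42, 7.33, 7.18 and 6.05. The highest ethanol array lay well below the lowest control array, and 2 of 4 DADS arrays did not detect it. The pooled fall was by 4.01 ± 0.27 (limma adjusted p 8.61e-08), with -3.00 in alcohol, and the ethanol groups differed, with an F test adjusted p of 0.00972 for Tsc22d1. Paqr9, a membrane receptor of the progestin and adiponectin receptor family, fell, with changes of -1.48, -1.30 and -2.22. The changes of Aox3, an aldehyde oxidase, were -0.97, -1.98 and -1.29, and those of Lamb3, a laminin chain, -1.67, -1.13 and -1.82. Aox3 lost its 3 calls without control replicate 1 or 4, and its pooled call with a fixed chip block (adjusted p 0.0673). The changes of Fam25c were -1.25, -1.96 and -2.08, and those of Nrep, a small protein first described in regenerating nerve, -2.004, -1.32 and -3.01. A DADS array of Nrep overlapped the control arrays, and the gene kept its 3 calls in 9 of 16 fits, losing them without any 1 of the control arrays or DADS replicates 1 to 3. With a fixed chip block its adjusted p was 0.0792. On the rising side, Ppl, a cytoskeletal linker of cell junctions, rose by 1.99, 2.57 and 2.79 with no overlap. Acnat2, a peroxisomal acyltransferase, rose by 1.42, 2.33 and 2.35 and kept its 3 calls in 12 of 16 fits, losing them without control replicate 1 or 2 or alcohol replicate 1 or 4.

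Individual nitrogen and amino acid genes from both ends of the liver lobule rose. Of 22 tested pericentral genes, 6 rose (5 without alcohol replicate 1) and 2 fell (Tbx3 and Cyp7a1), and 5 rose in all 3 groups. In the garlic oil group on its own 6 of them rose and 5 fell. The list median was -0.0046, and it changed sign after median scaling. Glul, the glutamine synthetase of the hepatocytes around the central vein, measured 9.08, 8.79, 8.94 and 9.19 on control arrays and 9.74 to 10.82 on ethanol arrays, and rose by 0.87, 1.29 and 1.34. Glul lost its 3 calls without control replicate 2 or alcohol replicate 3. Slc1a2, a glutamate importer of the same cells, rose by 0.68, 0.98 and 0.67. Of 18 tested periportal genes, 5 rose (6 without alcohol replicate 1) and 1 fell (Hsd17b6), with a median of 0.12. Ass1, a urea cycle enzyme, measured 13.30, 13.43, 13.75 and 13.87 on control arrays and 14.16 to 14.93 on ethanol arrays, and rose by 0.83, 0.97 and 1.07. Etnppl, a phosphoethanolamine lyase, rose by 1.28, 0.82 and 1.67 but kept its 3 calls in 10 of 16 fits, losing them without control replicates 1 to 3, alcohol replicate 3 or DADS replicate 1 or 2.

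Of 45 tested genes of amino acid catabolism, 5 rose and 1 fell, a share near the 16.7% of all genes, with a median of 0.09. After median scaling 8 rose and 1 fell. Prodh, which degrades proline, rose by 0.96 in alcohol, 0.92 in DADS and 0.85 in garlic oil. Hal, which degrades histidine, rose by 0.62, 0.95 and 0.89 and kept its 3 calls in 9 of 16 fits, losing them without control replicates 1 to 3 or any 1 of the alcohol arrays. Csad, an enzyme of taurine synthesis, fell by 1.26 ± 0.28 in the pooled comparison (limma adjusted p 0.0065), while its alcohol change of -0.59 did not pass (adjusted p 0.389) and the call was lost with a fixed chip block.

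The proteasome, which degrades ubiquitin-tagged proteins, rose broadly by small amounts. Of 29 tested subunits and assembly factors, 20 rose and 0 fell in the pooled comparison, 27 lay above 0, and the median was 0.42. By group the medians were 0.23 in alcohol, 0.43 in DADS and 0.47 in garlic oil, with 2, 15 and 18 subunits past the test. Psmd14, a deubiquitinase of the proteasome lid, measured 9.88, 9.70, 10.03 and 10.07 on control arrays. It measured 10.45, 10.31, 10.63 and 10.32 in alcohol, 10.60, 10.58, 10.62 and 10.19 in DADS, and 11.05, 10.71, 10.90 and 10.78 in garlic oil. All 12 ethanol arrays lay above the control arrays by a narrow margin, and the pooled rise of Psmd14 was 0.68 ± 0.11 (limma adjusted p 0.000525), with 0.51 in alcohol. Psmd11, a lid subunit, rose by 0.46, 0.77 and 0.88. With 1 array left out, Psmd14 kept its 3 calls in 9 of 16 fits, losing them without any 1 of the control arrays or alcohol replicate 1, 3 or 4. Psmd11 kept them in 3 of 16 fits, those without alcohol replicate 1, DADS replicate 2 or garlic oil replicate 1. With chip as a fixed block both pooled calls were lost (adjusted p 0.0979 for Psmd14 and 0.0586 for Psmd11).

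Other stress programmes were less uniform. Of 21 tested chaperones, 6 rose and 0 fell, with a median of 0.27. The mitochondrial pair Hspd1 and Hspe1 rose by 0.53 ± 0.09 and 0.72 ± 0.14, but their alcohol changes of 0.31 and 0.27 did not pass (limma adjusted p 0.154 and 0.444), and both calls were lost with a fixed chip block. Of 29 tested genes of ATF4 signalling and endoplasmic reticulum stress, 5 rose and 3 fell, or 8 and 4 without alcohol replicate 1, with a median of 0.04. Ddit3, the stress factor CHOP, had a pooled change of -0.27 (95% interval -0.63 to 0.08), with -0.56 in alcohol. Of 27 tested genes of the cell cycle and p53, 3 rose and 2 fell (1 without alcohol replicate 1), with a median of 0.09. Mcm6, a replication helicase subunit, rose by 0.70 ± 0.16 (adjusted p 0.00735), and by group 0.91, 0.75 and 0.44. Of 45 tested subunits of oxidative phosphorylation, 0 rose and 4 fell, with a median of -0.0026, and 3 rose and 1 fell after median scaling.

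Genes that glucocorticoids induce rose in part. Of 19 tested, 10 rose (11 without alcohol replicate 1) and 1 fell, 2 of them in all 3 groups (Mt1 and Mt2). The median was 0.60, with group medians of 0.50, 0.45 and 1.20. Per1, a clock gene that glucocorticoids also induce, rose by 1.47 ± 0.35 (limma adjusted p 0.00895), with 1.21 in alcohol, a call lost without control replicate 1. Igfbp1, an IGF binding protein that insulin represses, rose by 1.44 ± 0.36, with 0.94 in alcohol, a call lost without control replicate 3. Irs2, an insulin receptor substrate, fell by 1.60 ± 0.36, with changes of -2.12, -0.94 and -1.73, and Igfals, which carries IGF1 in blood, fell by 0.97 ± 0.18, with -0.78 in alcohol. Of 25 tested genes of growth hormone, IGF1 and insulin signalling, 2 rose (3 without alcohol replicate 1) and 4 fell. Of 15 tested clock genes, 2 rose and 3 fell (2 without alcohol replicate 1). Usp2, a deubiquitinase with a daily rhythm, rose by 1.45 ± 0.34, with 0.83 in alcohol. The clock output Dbp fell by 1.18 ± 0.32, with -1.90 in alcohol, a call lost without control replicate 1 or 2. The clock repressor Nr1d1 fell by 0.90 ± 0.23, with -1.34 in alcohol, a call lost without control replicate 1. With a fixed chip block the calls of Per1 (adjusted p 0.154), Igfbp1 (0.313), Igfals (0.099) and Usp2 (0.344) were lost. The labels used here do not give the hour at which livers were taken.

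Interferon-responsive genes fell in part. Of 34 tested, 12 fell and 0 rose in the pooled comparison, 28 lay below 0, and the median was -0.39, or -0.15 in alcohol, -0.36 in DADS and -0.60 in garlic oil. Irf9, the DNA-binding subunit of the complex that type I interferon activates, measured 9.38, 9.21, 9.29 and 9.37 on control arrays. It measured 8.58, 8.56, 8.54 and 8.85 in alcohol, 8.75, 8.52, 8.45 and 8.23 in DADS, and 8.39, 8.32, 8.34 and 8.25 in garlic oil. The groups did not overlap, and the fall of Irf9 was by 0.83 ± 0.10 (limma adjusted p 3.13e-05), with -0.68 in alcohol. Rsad2, an antiviral enzyme, measured 9.98, 10.19, 10.02 and 9.67 on control arrays and 8.04 to 9.38 on ethanol arrays, and fell, with changes of -1.07, -1.33 and -1.23. Rsad2 kept its 3 calls in 12 of 16 fits, losing them without control replicates 1 to 3 or alcohol replicate 4. Irf7, the amplifying factor of the response, fell by 0.85 ± 0.13 in the pooled comparison, with -0.51 in alcohol (adjusted p 0.0941), -0.85 in DADS and -1.19 in garlic oil, and its call was lost with a fixed chip block (adjusted p 0.142).

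The promoter of Rsad2 is shown as an example that holds the interferon-stimulated response core. Of 5 windows read for 4 interferon-responsive genes, it was the 1 with a match: both windows of Irf9 and those of Irf7 and Helz2 held none. The 250 bases before its start are given as RefSeq has them in GRCm38.p6, 5′ to 3′ on the minus strand, with the match in capitals. The core searched was GAAA, any 2 bases and GAAA again, on either strand, and here it lies on the opposite one.
Rsad2, chr12:26456453-26456702: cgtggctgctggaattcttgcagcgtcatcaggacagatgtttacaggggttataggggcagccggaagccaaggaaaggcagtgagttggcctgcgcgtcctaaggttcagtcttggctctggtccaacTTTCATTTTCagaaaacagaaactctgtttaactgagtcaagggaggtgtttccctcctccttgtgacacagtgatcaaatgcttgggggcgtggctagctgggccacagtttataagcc
The match begins at -120, and bases outside these windows were not searched. The same core was in 3.33% of all windows, in 3.70% of those of genes that rose in all 3 groups and in 3.45%, or 2 of 58, of those of genes that fell.

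Markers of immune and blood cells moved unevenly between the ethanol groups, and their part in the results above was not tested. In bulk liver, fewer cells of a type and less RNA per cell cannot be told apart. The summed signal of 16 Kupffer cell and macrophage markers was 11388 to 14599 on control arrays, 13123 to 16216 in alcohol, 5754 to 12531 in DADS and 12166 to 16798 in garlic oil. That of 18 lymphocyte and MHC class II genes was 4796 to 8036 in control, 5105 to 8320 in alcohol, 1814 to 3782 in DADS and 3273 to 6695 in garlic oil, with 8 to 10 of the 18 detected on no array of a group. Both were thus lower in DADS than in alcohol. In the pooled comparison, 2 of 13 tested Kupffer markers rose (1 without alcohol replicate 1) and 1 fell, and 0 of 8 lymphocyte and MHC class II genes rose and 2 fell (3 without alcohol replicate 1). H2-Ab1, an MHC class II chain, fell by 0.99 ± 0.23, with changes of -0.24 in alcohol, -1.77 in DADS and -0.96 in garlic oil, and C1qa, a complement chain made by macrophages, by 0.44 ± 0.12, with -0.18 in alcohol, a call lost without control replicate 1 or 4. Of 18 tested endothelial genes 1 rose and 1 fell, and of 19 stellate cell and matrix genes 2 rose and 0 fell. Of 3 tested cholangiocyte genes 0 passed, of 6 acinar genes 0 rose and 0 fell (1 without alcohol replicate 1), of 6 neutrophil genes 2 rose (1 without alcohol replicate 1) and 0 fell, and of 16 inflammation genes 1 rose and 1 fell. Vcam1, an adhesion molecule, rose by 0.88 ± 0.17, with 0.83, 0.14 and 1.68 by group (F test adjusted p 0.00228). With a fixed chip block the calls of Vcam1 (adjusted p 0.334), H2-Ab1 (0.776) and C1qa (0.701) were lost.

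Acute phase and iron genes changed in a few members. Of 26 tested acute phase and metal-binding genes, 7 rose (6 without alcohol replicate 1) and 0 fell, with a median of 0.24. Apart from the metallothioneins none passed in all 3 groups. Lcn2, an iron-binding protein of inflamed liver, rose by 2.30 ± 0.53 in the pooled comparison (limma adjusted p 0.00724), with 1.86 in alcohol (adjusted p 0.121), 3.65 in DADS and 1.38 in garlic oil (adjusted p 0.147). Lbp, which binds bacterial lipopolysaccharide, rose by 0.84 ± 0.16, with 0.66 in alcohol. Of 22 tested genes of iron and heme handling, 3 rose and 2 fell. Blvrb, a biliverdin reductase, rose in all 3 groups by 0.59, 0.81 and 0.55. Cpox, an enzyme of heme synthesis, fell, with changes of -0.60, -0.55 and -0.74, but kept its 3 calls in 3 of 16 fits, those without alcohol replicate 2, DADS replicate 4 or garlic oil replicate 1. With a fixed chip block the pooled calls of Cpox (adjusted p 0.0586), Lbp (0.0792) and Lcn2 (0.258) were lost.

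The 3 ethanol groups were not alike. By the moderated F test among them, which leaves control arrays out of the contrast, 392 genes differed (4.67%), including 170 of the 1399 genes of the pooled comparison and 24 of the 173 called in all 3 groups. The count was 254 without alcohol replicate 2, 216 without alcohol replicate 3 and 258 without DADS replicate 3. Alcohol arrays lay on 1 chip and DADS and garlic oil arrays on the other. In this F test a difference of DADS or garlic oil from alcohol therefore cannot be told apart from chip. Lpin1, a phosphatidate phosphatase of triglyceride synthesis, measured 5.81, 6.17, 5.66 and 6.86 on control arrays. It measured 8.25, 9.19, 9.66 and 7.65 in alcohol, 5.75, 7.27, 7.12 and 7.07 in DADS, and 9.47, 10.32, 10.87 and 10.12 in garlic oil. The DADS arrays overlapped with control and the others did not. Its pooled rise of 2.44 ± 0.34 thus joined changes of 2.56, 0.68 and 4.07 (F test adjusted p 0.00118), and the call of Lpin1 was lost with chip as a block. Vldlr, a lipoprotein receptor, rose by 1.98 ± 0.28, with 1.15 in alcohol (adjusted p 0.0727), 2.67 in DADS and 2.12 in garlic oil (F test adjusted p 0.0359), and its call was lost with a fixed chip block (adjusted p 0.102).

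Cdkn1a, the cell cycle inhibitor p21, rose by 2.28 ± 0.43 (limma adjusted p 0.00212), with 2.81 in alcohol, 1.04 in DADS, which did not pass (adjusted p 0.193), and 3.00 in garlic oil. Ddit4, a stress-induced inhibitor of mTOR, showed 2.59, 0.81 and 2.43, and Chac1, which degrades glutathione, 1.55, 0.59 and 1.78. Both rose in the pooled comparison, and their DADS values did not pass (adjusted p 0.287 and 0.302). By the F test, none of these 3 passed, at adjusted p of 0.0547 for Cdkn1a, 0.0648 for Ddit4 and 0.111 for Chac1, so a difference between the ethanol groups was not shown. Oasl1, an antiviral protein, fell by 1.12 ± 0.18, from control values of 8.77 to 9.23, and its changes of -0.62, -0.95 and -1.78 differed (F test adjusted p 0.0151). With a fixed chip block the pooled calls of Oasl1 (adjusted p 0.288) and Chac1 (0.0909) were lost.

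Slc4a1, the anion exchanger of red cells, passed the pooled test through 1 ethanol group. It measured 4.95, 5.27, 5.54 and 5.36 on control arrays, 5.14, 5.18, 5.24 and 5.55 in alcohol, 4.96, 5.21, 4.78 and 5.06 in DADS, and 7.51, 8.07, 7.29 and 7.24 in garlic oil. Only the garlic oil arrays stood above the rest, and no control array detected it. Slc4a1 passed the pooled test at least 1.15-fold (limma adjusted p 0.00572), with an F test adjusted p of 4.75e-07 among the ethanol groups. The summed signal of 7 red cell genes was 31918 to 34218 in control, 18488 to 30789 in alcohol, 15236 to 21819 in DADS and 52113 to 60248 in garlic oil. Alas2, the heme synthesis enzyme of red cell precursors, fell by 0.62 ± 0.20 in the pooled comparison (adjusted p 0.0383), with -0.07, -1.59 and -0.19 by group, a call lost in 7 of 16 fits, those without any 1 of the control arrays among them, and with a fixed chip block. With that block the change of Slc4a1 was -0.0049.

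**Figure D5:**
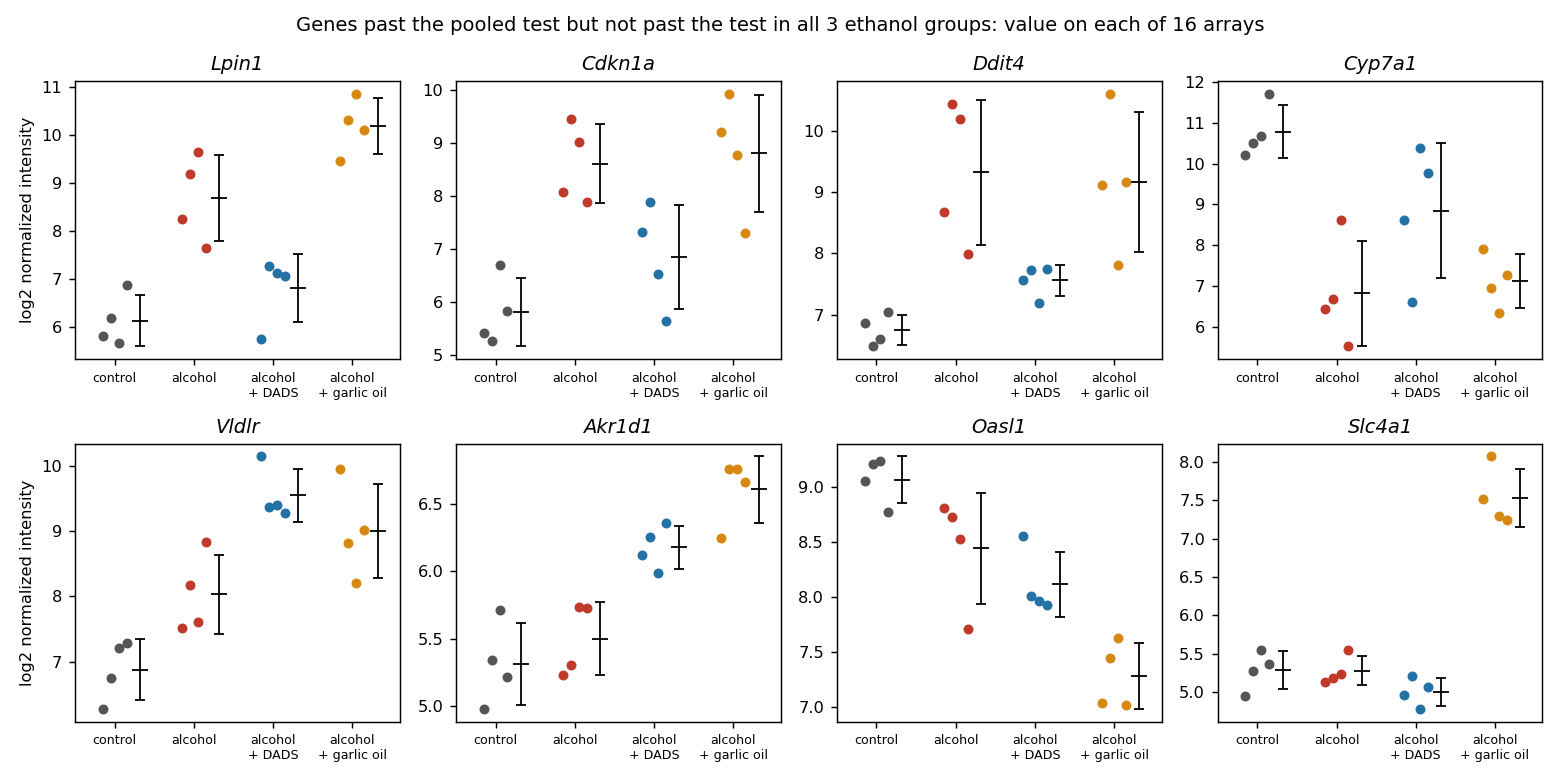
Level on each array (log2 normalised intensity, vertical axis) of 8 genes that passed the pooled test but not the test in all 3 ethanol groups, by group of 4 mice; points are arrays, and the bar beside each group is its mean with SD. DADS arrays lie nearer to control than those of the other ethanol groups for Lpin1, Cdkn1a, Ddit4 and Cyp7a1 by their means. Of these genes only Lpin1 passed the F test among ethanol groups. For Slc4a1 only garlic oil arrays stand apart.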

How the data were processed

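Liver RNA of 16 mice was labelled and hybridised to Illumina BeadChips, 4 mice a group. Per the file headers, the deposited files give for each probe a signal intensity and a detection p-value, and the authors' deposited normalized table holds intensities on a linear scale, whose log2 was taken. Per the submitters' processing notes, GenomeStudio, lumi and limma were used, and versions are not given in the sources used here. Intensities were background-corrected and quantile-normalized with neqc (offset 16) in limma 3.58.1 (R 4.3.3). The 11938 probes whose detection p was below 0.05 on 4 or more arrays entered, and the brightest probe stood for its gene. Of all probes, 23978 had 1 symbol and 1719 none. One linear model over all 16 arrays gave the 4 group means (12 residual degrees of freedom) and each contrast, with Benjamini-Hochberg adjustment over 8386 genes. The number of arrays limits precision, the median pooled SE being 0.13. The genes named were the 15 largest rises and falls called in all 3 groups (rises detected on all 12 ethanol arrays, falls on all 4 control arrays), from each list the 4 called members with the lowest p, and 22 fixed genes, of which Cd36 and Tnf were too seldom detected to test. The members and lists were chosen with earlier results of these data known. Scripts were tested on simulated data. Alternatives covered scaling, background, filters, probes, weights, chip and left-out arrays.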

Additional observations from a re-analysis of the deposited data

Results flagged for a closer look

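Of 404 groups of 4 arrays (101 genes), 22 held an array far from the other 3. There the gap to its nearest neighbour over the whole range exceeded Dixon's critical value. Chance flags about 1 group in 20, so the count of 22 is near the chance share. High arrays were control replicate 1 for Cyp2b23 (0.872) and Cyp7b1 (0.867), control replicate 3 for Ppl (0.89), alcohol replicate 2 for Fabp1 (0.84) and H2ac18 (0.883), and alcohol replicate 4 for Ech1 (0.872) and Irf9 (0.869). Others were DADS replicate 1 for Vldlr (0.868) and Oasl1 (0.875), DADS replicate 3 for Irf7 (0.862), DADS replicate 4 for Hsd3b5 (0.918) and garlic oil replicate 3 for Lamb3 (0.873). Low arrays were control replicate 3 for Usp2 (0.899), alcohol replicate 1 for Scd1 (0.957), alcohol replicate 2 for Gsta2 (0.9) and alcohol replicate 4 for Hsd3b5 (0.833). Others were DADS replicate 1 for Lpin1 (0.868), DADS replicate 4 for Cyp2b9 (0.833) and Psmd14 (0.908), and garlic oil replicate 1 for Cpox (0.845) and Ddit3 (0.951) and replicate 3 for Mt1 (0.856).

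In 28 of the 101 genes the change differed among the 3 ethanol groups by limma's F test, which compares these groups directly. Alcohol arrays lay on a chip of their own among them, so a difference of DADS or garlic oil from alcohol cannot be told apart from chip. The adjusted p was 0.00927 for Cyp2b9, 0.0427 for Cyp2b23, 0.0451 for Cyp3a11 and 0.0105 for Cyp2c39 among P450 genes, 0.0281 for Cyp2u1 and 0.0344 for Cyp4a14. For the transferases Gsta1 and Gstm1 it was 0.0408 and 0.0373. Among falls it was 0.00972 for Tsc22d1, 0.000737 for Mup21, 0.00747 for C6, 0.0374 for Paqr9, 0.0289 for Aox3, 0.0331 for Fabp1 and 0.00647 for Elovl3. For lipid and bile acid genes it was 0.00118 for Lpin1, 0.0359 for Vldlr, 0.00628 for Akr1d1 and 0.0137 for Ppara. It was 0.0333 for Hamp2, 0.0101 for Cux2, 0.0342 for Hspe1, 0.0151 for Oasl1 and 0.00228 for Vcam1. For genes of immune and red cells it was 0.0161 for H2-Ab1, 0.027 for C1qa, 4.75e-07 for Slc4a1 and 0.00309 for Alas2.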

How the results depend on the processing

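Pooled rises (716) and falls (683) became 1117 and 304 after median scaling, 1129 and 1168 with array weights, 498 and 475 with the ethanol groups joined (2 groups), 110 and 74 with 2 groups and chip as a fixed block, 327 and 296 with 2 groups and chip as a random block, and 170 and 163 with control and alcohol arrays alone. Genes risen in all 3 groups (100) were 194 with array weights, and those fallen (73) were 157 with array weights and 39 after median scaling. Genes differing among ethanol groups (392) were 766 after median scaling. Genes detected only on the ethanol diet (6) were 12 at detection p under 0.01. With 1 array left out, the ranges were 407 to 806 and 354 to 778 for pooled rises and falls, 55 to 130 and 24 to 101 for those in all 3 groups, and 216 to 426 among ethanol groups. Of the 12 named genes that did not pass, Hmox1 turned to 0.029 after median scaling. Ppara turned to -0.37, -0.0029 and -0.36, and Cyp4a14 to -0.55, -0.13 and -0.55, with chip as a fixed block, as a random block and with control and alcohol alone, and Cyp4a14 to -0.067 with array weights. Slc4a1 turned to -0.0049 with chip as a fixed block. With 1 array left out, Srebf1 ranged from -0.068 to 0.14, Scd1 from -0.15 to 0.19, Cyp4a14 from -0.077 to 0.10 and Plin2 from -0.050 to 0.12. Except for the chip settings and left-out arrays, which use fewer comparisons or arrays, the cause was not tested. Of 89 called named genes, 48 kept the pooled call in all 13 other settings and 80 in all 16 fits with 1 array left out. Same-numbered samples share only a number: over 24 pairs their deviations correlated at -0.367 to 0.404, and 9 of 16 arrays correlated best with their own number. With the replicate number as a block there were 656 rises, 622 falls, 81 and 53 in all 3 groups and 336 among ethanol groups. Probes at background give bounds only, and the brightest near the top of the scale.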

Other observations

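The genes and families here were chosen after their values were seen. Histone genes were lower on the ethanol diet: of 39 tested, 21 fell and 0 rose in the pooled comparison (limma), 31 lay below 0, and the median was -0.47. By group, 5 fell in alcohol (median -0.16), 19 fell and 1 rose in DADS (-0.49), and 24 fell in garlic oil (-0.69), and 10 of the 39 differed among ethanol groups by the F test. The alcohol comparison is the one that lies within a chip. H2ac18, a histone H2A gene, fell, with changes of -0.90 in alcohol, -1.10 in DADS and -0.87 in garlic oil. It and H2ac20, H2ac21, H4c8 and H4c11 were the 5 histone genes that fell in all 3 groups. With 1 array left out, H2ac18 and H4c8 kept these calls in 16 of 16 fits, H2ac21 in 14 (not without control replicate 1 or alcohol replicate 3), H2ac20 in 9 and H4c11 in 7, both losing them without any 1 of the control arrays or alcohol replicate 1, 3 or 4, and H4c11 also without DADS replicate 3 or garlic oil replicate 2. Of 11 tested tubulin genes, the subunits of microtubules, 6 rose and 0 fell, and the median was 0.72, with group medians of 0.64 in alcohol, 0.58 in DADS and 0.69 in garlic oil. Tubb4b rose by 1.03 in alcohol, 0.98 in DADS and 1.16 in garlic oil. It and Tuba8, Tubb6 and Tuba1b were the 4 that rose in all 3 groups. Tubb4b and Tubb6 kept these calls in 16 of 16 fits, Tuba1b in 12 (not without control replicate 1 or 2 or alcohol replicate 3 or 4) and Tuba8 in 9 (not without any 1 of the control arrays or alcohol replicate 1, 3 or 4). Histone and tubulin genes have near-identical relatives. Tubb2b was 1 of the 6 tubulin genes that rose, but another of its probes passed the pooled test downward.

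Detection alone separated a few genes. Besides Cyp2b10, Cyp2b13 and Cyp2b23, the genes detected on all 12 ethanol arrays and on 0 of 4 control arrays were Adam11 (at least 2.10-fold higher), Dusp4 (at least 1.87-fold) and Rec8 (at least 1.56-fold). Hsd3b4, a steroid dehydrogenase, was the reverse and was at least 1.38-fold lower on the ethanol diet.

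Within the male and female lists, 3 genes varied widely among ethanol-fed mice. Hsd3b5, a male-specific steroid reductase, measured 13.13 to 13.95 on control arrays. It measured 11.93, 12.79, 11.66 and 6.04 in alcohol, 5.08, 5.33, 5.33 and 8.11 in DADS, and 5.39, 8.71, 11.34 and 8.22 in garlic oil. All 12 lay below control, and the spread among them was wide. The pooled fall of Hsd3b5 was by 5.24 ± 1.01 (limma adjusted p 0.00238), the change of -2.96 in alcohol alone did not pass (adjusted p 0.208), and with chip as a fixed block the adjusted p was 0.271. Elovl3, a fatty acid elongase, measured 9.93 to 10.48 on control arrays and fell by 3.04 ± 0.40 (limma adjusted p 0.000113), with -1.50 in alcohol (adjusted p 0.103), -4.69 in DADS and -2.92 in garlic oil, and an adjusted p of 0.235 with chip as a fixed block. Cux2, a female-biased repressor, measured 5.09 to 5.30 on control arrays, 5.15 to 5.47 in alcohol, 7.36 to 9.06 in DADS, and 7.99, 5.28, 5.06 and 6.75 in garlic oil. The control and alcohol arrays were mostly at background (detected on 1 and 2 of 4), so the size of its pooled rise is not given. Its call (limma adjusted p 0.0249) was lost without any 1 of the control arrays, with chip as a fixed block and with the mean of its probes (adjusted p 0.0709).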
